A study of Mus musculus with 6 samples.

Results

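The extracellular matrix and integrin genes described here are the probes whose single gene symbol starts with Col and a digit, with Lama, Lamb or Lamc and a digit, with Itga, Itgb or Timp, or with Mmp and a digit, together with Dcn, Bgn, Fn1 and Sparc. Lum also belongs to the rule but was not found among the named probes. The rule used names and no measured value, and it gave 77 of 6856 probes, which stand for 74 of 6041 named genes. By role these are 29 collagen probes, 9 laminins, 17 integrin subunits, 13 matrix metalloproteinases, 3 Timp inhibitors and 4 glycoproteins and proteoglycans. The other 2, Itgb1bp1 and Itgb1bp2, meet the rule by their letters: they encode proteins that bind the inner end of an integrin and are not integrins themselves.

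Neocortex RNA of 6 null mutant mouse embryos, synaptically silent according to the labels, was hybridised on 6 arrays of 2 colours against 1 pool of wild-type RNA made from 6 animals. Mutants and wild types were of the C57BL/6 background and of embryonic day 14. The dyes were swapped: mutant RNA was labelled with cy3 for replicates 1 to 3 (the cy3 arrays) and with cy5 for replicates 4 to 6 (the cy5 arrays). With a single pool as control, the spread between wild-type animals was not measured.

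Each deposited value is a log ratio of the 2 channels, read here with base 2, which is assumed and not stated. The channel in the numerator is not stated either, so signs are those of the deposited table and no value is called higher or lower in the mutant. Every probe is therefore described by 2 estimates from 1 limma fit. The mean is the average of the cy3 arrays and the cy5 arrays, each orientation counted equally. It measures mutant against pool if the authors put the mutant in the numerator on every array. The orientation contrast is the mean of the cy5 arrays minus the mean of the cy3 arrays, divided by 2. It measures mutant against pool, up to its sign, if the same dye was always in the numerator, and a dye effect otherwise. The labels do not say which holds, so a mutant effect and a dye effect cannot be told apart in these estimates.

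The arrays held between 4396 and 5678 values. Replicates 3 and 4 stood apart, with standard deviations of 1.09 and 0.62 against 0.35 to 0.52 on the others, and with a correlation of 0.59 between them over 3875 probes although their dyes were opposite. Replicates 4 and 5, with the same dyes, correlated at -0.26 over 4375 probes and at -0.69 over the 25 matrix and integrin probes with both values. Estimates printed here that move by over 1.5 times or turn sign without replicates 3 and 4 are given both ways. The labelled tissue could be checked only in part: all 12 neocortex marker probes on the array, among them Emx2 and Eomes, had a value on every array, but a ratio does not show a level. In such bulk RNA, fewer cells of a type and less RNA per cell cannot be told apart.

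The extracellular matrix is the protein scaffold outside cells. In the embryonic cortex it forms the basement membrane under the meninges, a sheet of laminins and type IV collagen to which radial glia attach by their endfeet, and the basement membrane around blood vessels. Fibrillar collagens and decorin are made mainly by fibroblasts of the meninges. Integrins are receptors of an alpha and a beta subunit that hold cells to laminin, fibronectin or collagen, matrix metalloproteinases cut matrix proteins, and Timp proteins inhibit them.

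Many of these genes gave few values. Of the 77 probes, 16 had no value on any array, or 20.8%, against 11.3% of all probes. Values on all 6 arrays were present for 18, or 23.4%, against 54.9% of all probes. The number of members with a value was 51, 42, 26, 25, 56 and 56 on replicates 1 to 6, so it was lowest on replicates 3 and 4. Why a value is missing is not given in the sources used here. Among the 16 are the leukocyte integrin genes Itgb2, Itgb7 and Itgax, Itga8, Itgb4, the cartilage collagen genes Col9a1, Col9a3 and Col10a1, and the metalloproteinase genes Mmp12, Mmp13, Mmp19, Mmp1a and Mmp23. A fit needed at least 2 values in each dye orientation, which 41 probes of 40 genes had.

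**Figure D1:**
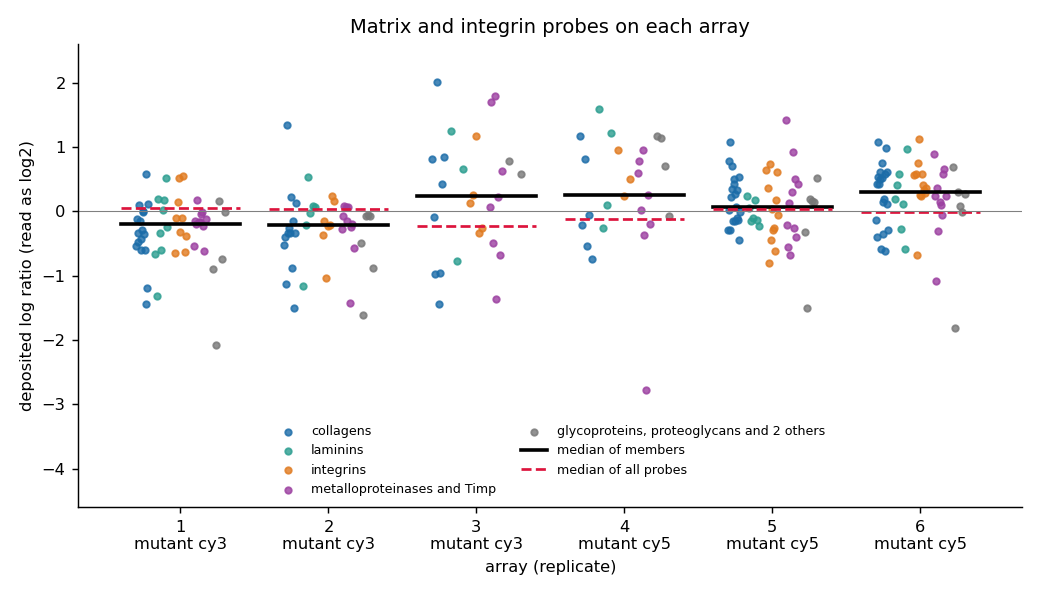
Deposited log ratios (vertical axis, read as log2) of all matrix and integrin probes with a value, on each of the 6 arrays (horizontal axis). Each point is 1 probe, coloured by role. Black bars are the median of the members and dashed bars the median of all probes. The members' median lies below that of all probes on replicates 1 and 2 and above it on replicates 3 to 6.

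No matrix or integrin gene passed the threshold in the main fit. Most members had an orientation contrast above 0, but the array medians did not split by dye. The cy3 array 3 lay with the cy5 arrays. On replicates 1 to 6 the median of the members was -0.20, -0.21, 0.24, 0.25, 0.063 and 0.30, and the median of all probes was 0.047, 0.040, -0.23, -0.13, 0.038 and -0.0049. The members thus lay below the other probes on the cy3 arrays 1 and 2 and above them on the cy3 array 3 and on the cy5 arrays 4 and 6, and were close to them on replicate 5. Over the 18 members with all values the medians were -0.16, -0.064, 0.15, 0.13, 0.17 and 0.32. The orientation contrast was above 0 for 34 of the 41 members fitted, or 82.9%, against 53.0% of the 4958 probes fitted. All members share the same 6 arrays, so this is not a count of independent values. The median contrast was 0.14 over the members and 0.015 over all probes. Without replicates 3 and 4 it was above 0 for 30 of 39 members, or 76.9%, against 47.8% of 4728 probes, with medians of 0.12 and -0.010. The mean of the orientations was above 0 for 19 of 41 members, or 46.3%, against 43.3% of all probes, with medians of -0.014 and -0.033. Without replicates 3 and 4 it was above 0 for 17 of 39 members, or 43.6%, against 62.6% of all probes, so the members were then below 0 more often than the array as a whole.

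In limma, 0 of 41 members had an adjusted p under 0.05 for the mean, and 0.0% of all probes did. The same counts, 0 of 41 and 0.0%, were found for the orientation contrast. The smallest adjusted p among the members was 0.921 for the mean and 0.972 for the contrast. At an unadjusted p under 0.05 there were 4 members for the mean, Itga5, Col5a2, Dcn and Lamc1, against 1.77% of all probes. Of these 3 were above 0 and Dcn below, directions in which 1.07% and 0.706% of all probes passed. For the contrast there were 7 members, Mmp11, Col4a2, Col1a1, Lama1, Col5a1, Itga5 and Bgn, against 4.6% of all probes. All 7 had a contrast above 0, a direction in which 2.5% of all probes passed, and 0 members and 2.1% of all probes passed below 0. Of the 7 only Col4a2 had 6 values. The others lacked replicate 3, replicate 4 or both, the arrays with the largest spread. Values on all arrays were present for 18 of 41 fitted members, against 3763 of 4958 fitted probes, so the shares compare unlike sets. Whether the missing arrays bear on the members' share was not tested. Without replicates 3 and 4 the members' share for the contrast was no longer above that of all probes: 8 of 39 members, or 20.5%, against 23.4%. Of these, 7 were above 0, against 10.6% of all probes, and 1 was below, against 12.8%. For the mean there were then 10 of 39 members, or 25.6%, against 13.6%, of which 4 were above 0 and 6 below, against 8.04% and 5.54% of all probes. After adjustment 0 members and 0.0212% of all probes passed for the mean, and 0 members and 0.0% for the contrast.

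In a further fit each array counted by its agreement with the model, which gave replicates 3 and 4 weights of 0.10 and 0.31, against 1.40 to 4.01 on the others. There 1 member passed for the contrast, Col1a1, against 0.625% of all probes, and 0 members passed for the mean, against 0.0403%. At an unadjusted p under 0.05 this fit held 13 members for the contrast, against 27.3% of all probes, with 11 above 0 and 2 below, against 11.9% and 15.4%. For the mean it held 11 members, against 12.1%, with 6 above 0 and 5 below, against 7.3% and 4.8%. The contrast was above 0 for 33 of 41 members, or 80.5%, against 47.2%, and the mean for 19, or 46.3%, against 58.6%.

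**Figure D2:**
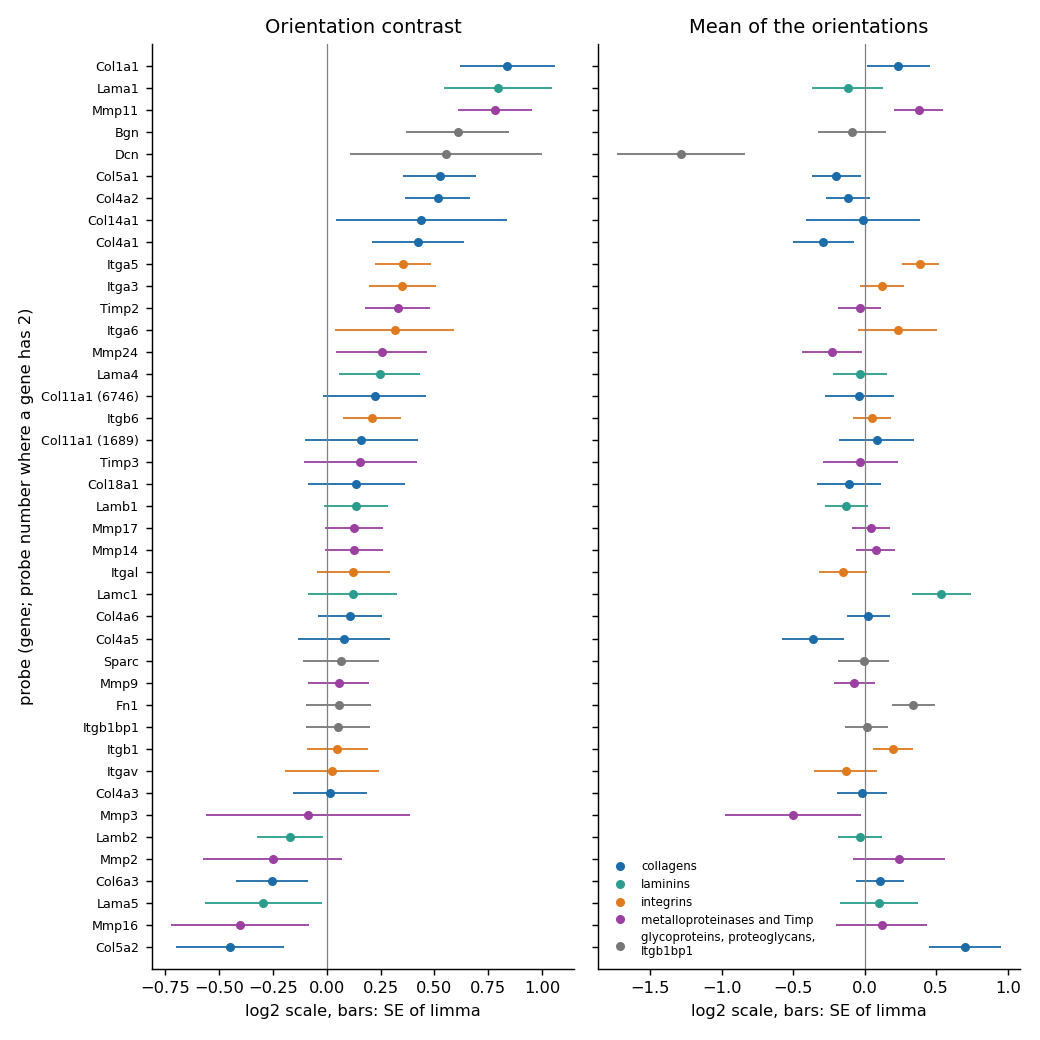
Orientation contrast (left) and mean of the orientations (right) of the 41 fitted probes, both on the log2 scale, with bars for the standard error from limma and colours for the role. On the left 34 of 41 points lie above 0, while on the right 19 do.

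Type IV collagen is the network former of basement membranes, and its alpha 1 and alpha 2 chains are encoded by Col4a1 and Col4a2. Col4a1 had log ratios of -0.43, -0.27 and -1.44 on the cy3 arrays and -0.55, 0.43 and 0.52 on the cy5 arrays. Col4a2 had -0.60, -0.33 and -0.97 in cy3 and -0.058, 0.51 and 0.75 in cy5. Both genes were below 0 on replicates 1 to 4 and above 0 on replicates 5 and 6. For Col4a2 the orientations did not overlap, with every cy3 array below every cy5 array, which was seen for 1 of 18 members and for 4.97% of all probes with 6 values. In either direction the orientations stayed apart for 9.89% of them. With fewer values the orientations stay apart more easily, and probes with fewer than 6 values were not counted. Its contrast was 0.52 ± 0.15 (SE, n = 6; limma adjusted p = 0.972), and 0.55 without replicates 3 and 4. For Col4a1, replicate 4 lay below replicates 1 and 2, so the orientations overlapped, and the contrast was 0.42 ± 0.21 (SE, n = 6), or 0.41 without replicates 3 and 4.

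The 2 genes stand head to head on opposite strands, and the RefSeq starts in GRCm38.p6 lie so close that the first exons overlap by 22 bases. The stretch around both starts is shown to give their position. Whether the shared start bears on the values of the 2 genes was not tested. It is the forward strand of chr8:11312801-11312830, with the overlap between the Col4a2 start and the Col4a1 start in capitals.
Col4a1 and Col4a2: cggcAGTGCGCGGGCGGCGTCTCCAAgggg
On the 6 arrays the values of the pair differed by 0.25 on average in size, from 0.066 on replicate 2 to 0.49 on replicate 4. For comparison, the median over all 153 pairs of members with 6 values was 0.67, and the pair ranked 9 among them. The median of the same measure over the 37 genes with 2 probes of 6 values each was 0.47, so the chains differed by less than probes of 1 gene commonly did.

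The remaining collagens of networks and basement membranes had smaller contrasts. Col4a5, which codes for a chain of specialised basement membranes, had 0.0036 and -0.88 in cy3 and -0.75, 0.26 and -0.36 in cy5, with a mean of -0.36 ± 0.21 (SE, n = 5). Col18a1, the source of the vessel inhibitor endostatin, had -0.15 and -0.34 in cy3 and 0.82, -0.14 and -0.59 in cy5. It was negative on the 4 arrays other than replicate 4 that gave a value. The values of Col4a3 and Col4a6 stayed within 0.30 of 0 on every array that measured them. All 6 fitted members of this class had a contrast above 0, from 0.014 for Col4a3 to 0.52 for Col4a2, with a median of 0.12. That of Col18a1 was -0.061 without replicates 3 and 4. Of those not fitted, Col15a1 had 0.70 and 0.51 on replicates 5 and 6 and Col7a1 had -0.36 on replicate 1, while Col4a4 and Col10a1 had no value.

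Fibrillar collagens make the fibres of connective tissue. Col1a1, the main chain of type I collagen, had -1.13 and -0.082 in cy3 and 1.08 and 1.07 in cy5, with no value on replicates 1 and 4. Both cy3 values were below 0 and both cy5 values near 1. Its contrast of 0.84 ± 0.22 (SE, n = 4) was the largest of all members, and with array weights it passed, at 1.09 ± 0.094 (SE, n = 4; limma adjusted p = 0.0256). In that fit its cy3 values, on replicates 2 and 3, had weights of 4.01 and 0.10. The cy3 side of this result thus rested almost wholly on replicate 2. Neither Col1a1 nor Col5a1 could be fitted without replicates 3 and 4. Col5a1, a chain of type V collagen, which limits the width of collagen fibrils, had -0.47 and -0.97 in cy3 and 0.23 and 0.43 in cy5, a contrast of 0.53 ± 0.17 (SE, n = 4).

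Col5a2 encodes the partner chain of Col5a1 in type V collagen and went the other way. It had 0.10, 1.33 and 2.01 in cy3 and -0.21, 0.35 and 0.62 in cy5. All arrays but replicate 4 were above 0, and the highest was that of replicate 3. Its mean of 0.70 ± 0.25 (SE, n = 6; limma adjusted p = 0.921) was the highest of the members, and its contrast of -0.45 ± 0.25 (SE, n = 6) the lowest. The mean was 0.60 and the contrast -0.12 without replicates 3 and 4.

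Col11a1, a minor fibrillar collagen known from cartilage, was measured by 2 probes that gave different values. Probe 1689 had -0.54, -0.52 and 0.82 in cy3 and 1.17, -0.30 and -0.14 in cy5. Probe 6746 had -0.12 and -0.40 in cy3 and 0.78 and -0.41 in cy5, with none on replicates 3 and 4. On replicate 5 the probes lay on opposite sides of 0 and differed by more than 1. Their contrasts were 0.16 ± 0.26 (SE, n = 6) and 0.22 ± 0.24 (SE, n = 4), each within its standard error of 0. The others were not fitted: Col11a2 had -0.33, 0.015 and 0.43 on replicates 1, 5 and 6, Col3a1 had -0.29 and 0.53 on replicates 5 and 6, and Col5a3 had no value.

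Of the collagens that decorate fibrils or form beaded filaments, only Col14a1 and Col6a3 could be fitted. Col14a1 had 0.59 and -1.50 in cy3 and -0.14 and 0.99 in cy5, so the arrays disagreed in sign within each orientation. Probe 369 of Col6a3, a chain of the microfibrillar type VI collagen, had 0.12, 0.13 and 0.84 in cy3 and -0.016 and -0.28 in cy5. Its contrast of -0.26 ± 0.17 (SE, n = 5) is 1 of the 7 below 0, and was -0.14 without replicates 3 and 4. Another probe of Col6a3, number 368, had 1 value, -1.19 on replicate 1, where probe 369 had 0.12, and the third had none. Col6a1 had -1.45 on replicate 1 and 0.53 and 0.12 on replicates 5 and 6, Col12a1 had -0.61, 0.34 and -0.62 there, Col13a1 had 0.42, -0.11 and 0.58 on replicates 3, 5 and 6, and Col19a1 had -0.44 and 0.62 on replicates 5 and 6. Col6a2 had -0.34 on replicate 2.

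**Figure D3:**
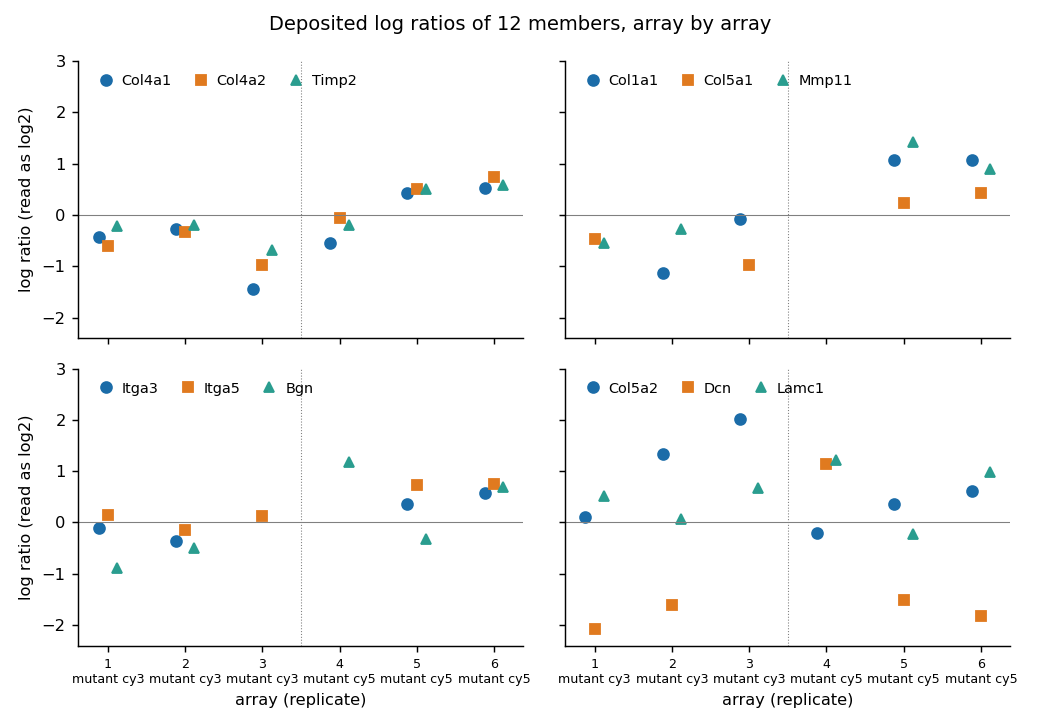
Deposited log ratios (vertical axis, read as log2) of 12 members on the 6 arrays (horizontal axis), 3 genes to a panel, 1 point per array, with a dotted line between the dye orientations. Col4a1, Col4a2 and Timp2 share their sign on every array and lie farthest apart on replicate 3. Mmp11, Col1a1 and Col5a1, with 4 values each, lie below 0 on the left and above 0 on the right. Dcn is near or below -1.5 on every array with a value but replicate 4.

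Laminins are trimers of an alpha, a beta and a gamma chain and the first proteins of a basement membrane. Lama1, the alpha chain of early embryonic basement membranes, had -0.66 and -1.17 in cy3 and 1.60, 0.24 and 0.19 in cy5, with no value on replicate 3. Both cy3 values were below every cy5 value, but how often this occurs among all probes with 5 values was not counted. The contrast was 0.80 ± 0.25 (SE, n = 5; limma adjusted p = 0.972), or 0.57 without replicates 3 and 4. Lamc1, the gamma chain shared by most laminins, had 0.51, 0.069 and 0.66 in cy3 and 1.21, -0.22 and 0.98 in cy5. It was above 0 on 5 of 6 arrays, and its mean was 0.54 ± 0.21 (SE, n = 6; limma adjusted p = 0.921), or 0.33 without replicates 3 and 4.

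The other fitted laminin chains gave smaller or mixed values. Lamb1, a beta chain, had 0.015, -0.03 and -0.78 in cy3 and -0.26, 0.17 and 0.11 in cy5, a mean of -0.13 ± 0.15 (SE, n = 6), or 0.066 without replicates 3 and 4. Lama5, the alpha chain of most later basement membranes, had -0.60, 0.54 and 1.24 in cy3 and -0.11 and -0.28 in cy5, so its cy3 arrays spread over nearly 2. Lama4, typical of vessel walls, and Lamb2 had contrasts of 0.25 ± 0.19 (SE, n = 4) and -0.17 ± 0.15 (SE, n = 5). Of 6 fitted laminins, 4 had a contrast above 0 and 2 below. Lama2 had -1.32, 0.052 and 0.40 on replicates 1, 5 and 6, and Lama3 and Lamc3 had 0.18 and -0.25 on replicate 1 alone.

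Among the integrin alpha subunits all 5 fitted contrasts were above 0, from 0.026 for Itgav to 0.35 for Itga5. Itga5, which forms the fibronectin receptor together with the beta subunit Itgb1, had 0.14, -0.16 and 0.12 in cy3 and 0.73 and 0.75 in cy5, with no value on replicate 4. The 2 cy5 values exceeded every cy3 value, which was likewise not counted over all probes with 5 values. It is the only member that lay under an unadjusted p of 0.05 for both estimates, with a mean of 0.39 ± 0.13 (SE, n = 5; limma adjusted p = 0.921) and a contrast of 0.35 ± 0.13 (SE, n = 5; limma adjusted p = 0.972). Both were 0.37 without replicates 3 and 4. Itga3, a laminin receptor subunit of radial glia and migrating neurons, had -0.10 and -0.36 in cy3 and 0.36 and 0.58 in cy5, a contrast of 0.35 ± 0.16 (SE, n = 4).

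Itga6, the other laminin receptor subunit of radial glia, had 0.52, -1.03 and 0.26 in cy3 and 0.95, -0.44 and 1.13 in cy5. Its sign changed within each orientation, and the contrast of 0.32 ± 0.28 (SE, n = 6) was little larger than its error. Itgal, a leukocyte subunit, had -0.32 and -0.22 in cy3 and -0.29 and 0.24 in cy5. Itgav, which binds vitronectin and other ligands, had a mean of -0.13 ± 0.22 (SE, n = 4). The others with values could not be fitted: Itga2b had -0.64, 0.64 and 0.56 on replicates 1, 5 and 6, Itgam had 1.17, -0.26 and 0.58 on replicates 3, 5 and 6, Itga4 had -0.80 and -0.69 on replicates 5 and 6, and Itga7 had 0.035 and 0.25 there.

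Itgb1, the beta subunit that pairs with most of these alpha subunits, had 0.55, 0.23 and -0.34 in cy3 and 0.23, 0.17 and 0.34 in cy5. It was above 0 on 5 of 6 arrays, with a mean of 0.20 ± 0.14 (SE, n = 6) and a contrast of 0.050 ± 0.14 (SE, n = 6). These were 0.32 and -0.068 without replicates 3 and 4. Itgb6, a partner of Itgav in epithelia, had -0.39, 0.17 and -0.25 in cy3 and 0.50, -0.061 and 0.36 in cy5. Itgb3 had -0.64, 0.61 and 0.29 on replicates 1, 5 and 6. Itgb1bp1, which binds the tail of the Itgb1 protein, had -0.0071, -0.074, 0.15 and -0.014 on replicates 1, 2, 5 and 6, and Itgb1bp2 had -0.88, 0.52 and 0.27 on replicates 2, 5 and 6.

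Of 8 fitted metalloproteinases, 5 had a contrast above 0 and 3 below. Mmp11, a secreted enzyme first known from the tissue around tumours, had -0.54 and -0.27 in cy3 and 1.42 and 0.89 in cy5, with no value on replicates 3 and 4. The orientations, of 2 values each, lay more than 1 apart, and the contrast of 0.78 ± 0.17 (SE, n = 4; limma adjusted p = 0.972) had the smallest unadjusted p of all members. Mmp2, which cuts type IV collagen, had -0.16, -0.14 and 1.79 in cy3 and 0.95, -0.68 and -0.31 in cy5. It was above 0 on replicates 3 and 4 and below 0 on the other arrays, so that its mean was 0.24 ± 0.32 (SE, n = 6) with them and -0.32 without.

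Mmp3, which cuts many matrix proteins, gave the widest values of the class. It had -0.044, -1.43 and 0.22 in cy3 and -2.78, 0.91 and 0.10 in cy5, and its mean was -0.50 ± 0.47 (SE, n = 6), or -0.11 without replicates 3 and 4. Mmp24, a membrane-bound enzyme of neurons, had -0.16, 0.072 and -1.37 in cy3 and -0.37, 0.30 and 0.14 in cy5. Its values on replicates 3 and 4 lay farthest from 0. Mmp16, another membrane-bound enzyme, had the lowest contrast of the class at -0.40 ± 0.32 (SE, n = 6), and the contrasts of Mmp9, Mmp14 and Mmp17 lay between 0.056 and 0.13. For Mmp9, Mmp14 and Mmp17 they were -0.012, 0.062 and 0.060 without replicates 3 and 4.

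Timp2, an inhibitor of metalloproteinases, had -0.22, -0.19 and -0.68 in cy3 and -0.20, 0.50 and 0.58 in cy5, below 0 on replicates 1 to 4 and above 0 on replicates 5 and 6. Its distance from Col4a2 was 0.19 on average, rank 2 of the 153 pairs, and that from Col4a1 was 0.26, rank 10. These ranks describe pairs that share every array. The contrast of Timp2 was 0.33 ± 0.15 (SE, n = 6), or 0.37 without replicates 3 and 4. Timp3, the inhibitor that binds to the matrix, had -0.62, -0.57 and 0.63 in cy3 and -0.41 and 0.65 in cy5, and Timp4 had -0.13, 0.42 and 0.24 on replicates 1, 5 and 6.

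Decorin, Dcn, a small proteoglycan that binds collagen fibrils, had the mean farthest from 0 of the set. It had -2.08 and -1.60 in cy3 and 1.14, -1.50 and -1.82 in cy5, with no value on replicate 3. Thus the other 4 arrays, from both orientations, lay close together and replicate 4 stood on the other side of 0. The mean was -1.28 ± 0.45 (SE, n = 5; limma adjusted p = 0.921). Without replicates 3 and 4 it was -1.75 ± 0.11 (SE, n = 4; limma adjusted p = 0.0615), which missed the threshold.

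Biglycan, Bgn, the closest relative of decorin, had its highest value on the same array as decorin. It had -0.90 and -0.50 in cy3 and 1.18, -0.32 and 0.69 in cy5, and a contrast of 0.61 ± 0.24 (SE, n = 5), or 0.44 without replicates 3 and 4. It had the sign of Dcn on replicates 1, 2, 4 and 5, where it was nearer to 0 on all but replicate 4, and the opposite sign on replicate 6. Fibronectin, Fn1, had 0.16, -0.079 and 0.78 in cy3 and 0.70, 0.19 and 0.30 in cy5. It was above 0 on 5 of 6 arrays, with a mean of 0.34 ± 0.15 (SE, n = 6), or 0.14 without replicates 3 and 4. Sparc, a collagen-binding glycoprotein, had -0.74, -0.06 and 0.58 in cy3 and -0.07, 0.16 and 0.08 in cy5, a mean of -0.0078 ± 0.18 (SE, n = 6), or -0.14 without replicates 3 and 4. All 4 genes of this class had a contrast above 0, from 0.056 for Fn1 to 0.61 for Bgn. That of Fn1 was 0.10 without replicates 3 and 4, and that of Dcn 0.089 against 0.56 with them.

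Of the 7 genes with the smallest p for the contrast, Bgn, Col5a1, Itga5 and Mmp11 are shown by the 250 bases before their start, from RefSeq in GRCm38.p6, because each had a contrast above 0 with an unadjusted p under 0.05, although none passed after adjustment and their values differed from array to array. Windows of Col1a1 and Lama1 were not used here, and that of Col4a2 reaches into Col4a1. Capitals mark the GC box, GGGCGG on the given strand or CCGCCC for the other strand. The windows are chrX:73483351-73483600 on the forward strand for Bgn, chr2:27886175-27886424 on the forward strand for Col5a1, chr15:103366792-103367041 on the reverse strand for Itga5 and chr10:75932503-75932752 on the reverse strand for Mmp11.
Bgn: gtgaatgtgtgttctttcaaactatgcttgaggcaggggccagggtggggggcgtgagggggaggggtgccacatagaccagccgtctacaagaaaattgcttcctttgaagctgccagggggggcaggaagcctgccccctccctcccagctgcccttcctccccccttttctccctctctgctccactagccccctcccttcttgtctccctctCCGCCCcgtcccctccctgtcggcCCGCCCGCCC
Col5a1: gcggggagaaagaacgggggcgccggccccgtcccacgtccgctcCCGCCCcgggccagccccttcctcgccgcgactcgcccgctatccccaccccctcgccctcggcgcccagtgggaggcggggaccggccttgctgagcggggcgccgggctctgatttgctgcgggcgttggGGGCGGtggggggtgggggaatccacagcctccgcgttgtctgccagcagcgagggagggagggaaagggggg
Itga5: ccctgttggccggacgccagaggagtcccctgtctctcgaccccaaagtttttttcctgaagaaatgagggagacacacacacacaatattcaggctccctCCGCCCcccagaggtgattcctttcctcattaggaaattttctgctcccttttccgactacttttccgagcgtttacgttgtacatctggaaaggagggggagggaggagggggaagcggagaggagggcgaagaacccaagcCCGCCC
Mmp11: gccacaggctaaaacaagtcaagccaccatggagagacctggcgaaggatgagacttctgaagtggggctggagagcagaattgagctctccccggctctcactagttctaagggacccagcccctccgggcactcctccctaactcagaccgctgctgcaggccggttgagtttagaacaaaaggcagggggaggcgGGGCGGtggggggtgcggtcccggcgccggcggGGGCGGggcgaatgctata
Each of the 4 holds a GC box, 3 in Bgn, where 2 overlap, and 2 in each of the others, and 32.7% of all 32851 windows of this length hold at least 1 on either strand. None of the 4 holds CCAAT or TATAAA on either strand, which 33.8% and 12.4% of all windows do. The GC content of the 4 was 64.4% for Bgn, 76.4% for Col5a1, 55.6% for Itga5 and 63.2% for Mmp11. They were not set against windows of like GC content. The window of Col4a2, which is not shown, holds 1 CCAAT within 300 bases. Over all 56 windows of 300 bases found for 49 of the 74 genes, 51.8% held a GC box, against 35.7% of all windows. CCAAT was in 23.2%, against 37.4%, and TATAAA in 14.3%, against 13.6%. The median GC content was 57.6%, against 52.7%. These matches describe the letters of the windows.

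Sign patterns over the arrays were counted for all members with the needed values. No member of the 18 with 6 values had 1 sign on all 6 arrays, as deposited or with the cy3 arrays turned, against 1.44% and 3.91% of all 3763 probes with 6 values. On replicates 1, 2, 5 and 6 alone, a choice made after seeing the values, 9 of 39 members were below 0 on both cy3 arrays and above 0 on both cy5 arrays, or 23.1%, against 12.6% of all probes. These 9 were Col4a1, Col4a2, Col4a6, Lama1, Itga3, Mmp11, Mmp3, Timp2 and Sparc. The reverse pattern was seen for 2 members, Col6a3 and Lamb2, or 5.13%, against 16.9% of all probes. A single sign on these 4 arrays was seen for 8 members, or 20.5%, against 17.2%: Col5a2, Itgb1 and Mmp17 were above 0, and Dcn, Col18a1, probe 1689 of Col11a1, Mmp2 and Mmp9 below, while probe 6746 of Col11a1 was above 0 on replicate 5.

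Genes of the same pathway outside the rule were counted in the same way, beside the 53.0% of all probes with a contrast above 0 and their median of 0.015. Of 28 fitted probes of other matrix proteins, such as Tnc and Spock2, 19 had a contrast above 0, with a median of 0.14. Of 13 probes of collagen processing and crosslinking enzymes 9 did, with a median of 0.086, and of 13 probes of other matrix proteases and inhibitors 8 did, with a median of 0.031. These medians were 0.16 and 0.085 without replicates 3 and 4, over 11 probes each. Of 21 probes of integrin adhesion and signalling proteins, such as talin and vinculin, 17 did, with a median of 0.13. Of 13 probes of proteoglycan and hyaluronan receptors 7 did, with a median of 0.053. In these 5 lists 0 probes passed in limma for either estimate, and at an unadjusted p under 0.05 there were 2, 0, 1, 1 and 0 for the mean, against 1.77% of all probes, and 3, 0, 2, 0 and 1 for the contrast, against 4.6%.

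The genes of these lists with the smallest p for the mean were Vcl, Adam9, Spock2 and Tnc. Vinculin, Vcl, which ties integrins to actin, had 0.26, 0.057 and 0.48 in cy3 and 0.41 and 1.09 in cy5, above 0 on all 5 arrays with a value. Its mean was 0.51 ± 0.16 (SE, n = 5; limma adjusted p = 0.921). Spock2, a brain proteoglycan, had -0.97 and -1.55 in cy3 and -0.52 and 0.46 in cy5, and Adam9, a membrane protease, had -0.13, -0.20, -1.63, -1.80 and -0.27 on replicates 1, 2, 4, 5 and 6. Reck, a membrane inhibitor of metalloproteinases, had -0.27 and -0.10 in cy3 and 0.70 and 0.52 in cy5. Its contrast of 0.40 ± 0.15 (SE, n = 4) lay beside that of Timp2. Sdc1, a syndecan on the cell surface, had -0.32, -0.44 and -1.06 in cy3 and 0.082, 0.54 and 0.16 in cy5, with a contrast of 0.44 ± 0.14 (SE, n = 6). Its orientations did not overlap, with the cy3 arrays lower, which was seen for 4.97% of all probes with 6 values.

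Markers of cells that make matrix and of other cells were set beside these values, again against 53.0% of all probes with a contrast above 0. Of 14 endothelial probes 10 were fitted, 6 with a contrast above 0, and their array medians of -0.47, -0.12, 0.93, 0.078, 0.22 and 0.25 on replicates 1 to 6 were on the same side of 0 as those of the matrix and integrin genes on every array. The endothelial medians rest on 7 to 12 probes per array, and over the 3 probes with all values they had the same signs. Single markers differed: on replicates 1 to 6, 2 of 10, 3 of 12, 6 of 7, 5 of 8, 7 of 11 and 7 of 11 endothelial probes were above 0. Tie1, for example, had 0.23, 0.27 and -0.052 on replicates 1, 2 and 6, each opposite in sign to the endothelial median. Of 8 meningeal probes 6 were fitted, 1 with a contrast above 0. Their array medians were 0.20, 0.0022, 0.25, 0.11, 0.029 and -0.078. Pericyte and smooth muscle markers had 1 of 4 above 0, with array medians of -0.38, -0.024, 1.61, 0.55, -0.061 and 0.34. These medians, of 2 to 5 probes, shared the sign of the matrix and integrin genes on all arrays but replicate 5. Blood markers had 4 of 5 above 0, markers of cartilage, bone and muscle 2 of 6, and microglia markers 2 of 4. Neocortex markers had 7 of 12 above 0, with a median contrast of 0.066, and 5 of 12 without replicates 3 and 4, with a median of -0.029. The microglia markers then had 3 of 4 and the meningeal markers 2 of 6. A ratio does not show whether a marker is near 0, and the part of vessel, meningeal or other cells in the values of the matrix genes was not tested.

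**Figure D4:**
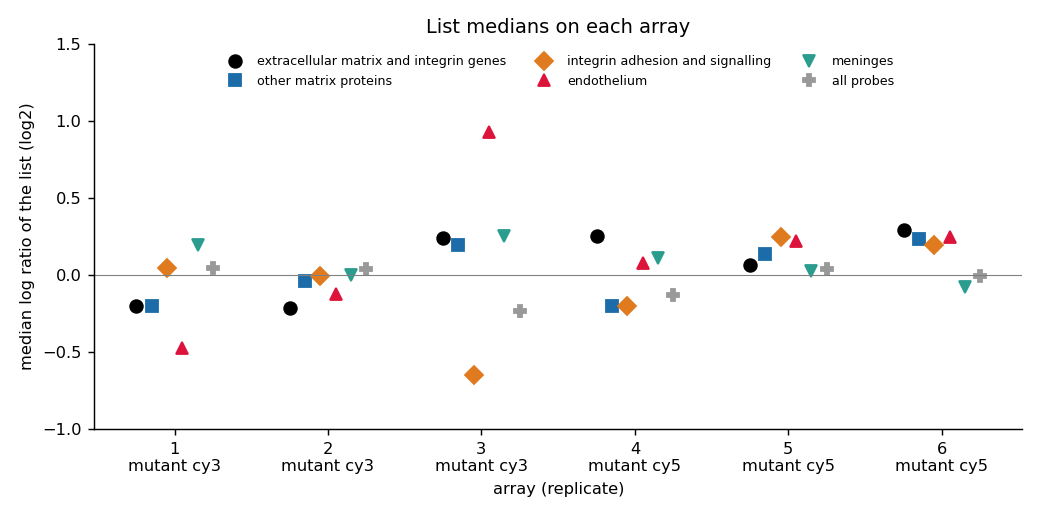
Median log ratio of 5 gene lists and of all probes (vertical axis, log2) on each array (horizontal axis), 1 symbol per list. The medians of the endothelial markers and of the matrix and integrin genes lie on the same side of 0 on all 6 arrays, although single endothelial markers do not. The medians of integrin signalling genes and meningeal markers do not follow them on every array.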

How the data were processed

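The data were 6 arrays of 2 colours, 1 for each mutant, with the wild-type pool in the other channel. The authors deposited a table of log ratios, read here as log2. How arrays were scanned, background-corrected and normalized is not given in the sources used here, nor are the log base and the numerator. Array means lay between -0.0061 and 0.0089. Scanner intensities were not used here, so precision is limited by the number of arrays, and depth does not apply.

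Gene names came from the platform annotation, which gave 1 symbol for 6269 probes, several for 6 and none for 581. All 74 member genes matched the reference by gene identifier. The targeted gene is not reported here.

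The model had a mean and a dye orientation term and was run in limma 3.58.1 (lmFit, then eBayes) under R 4.3.3. A probe needed 2 or more values per orientation. The ratio against 0 is the test. It was two-sided, with Benjamini-Hochberg adjustment over all 4958 probes and a threshold of 0.05. The fit was tested on simulated data. Alternatives were a turned sign, no dye term, other centring and scaling, other filters on missing values, robust moderation (statmod 1.5.0), array weights, averaging per gene, leaving out arrays and a threshold of 0.1.

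The members and lists were chosen with earlier results of these data known. Named genes are up to 4 per role class with the smallest p of the mean, members with 1 sign on all arrays, the 3 highest and 3 lowest means, genes with 2 fitted probes, and up to 2 genes of each other list. Other genes named were chosen after their values were seen.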

Additional observations from a re-analysis of the deposited data

Results flagged for a closer look

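Of 72 sets of 4 to 6 array values examined for a single distant array, 4 had one, where chance gives about 1 in 20. Decorin, Dcn, stood at 1.14 on replicate 4, while its other arrays lay between -2.08 and -1.50. The neocortex marker Emx2 stood at 0.43 on replicate 3, against 0.037 to 0.19 on the others. The median of the neocortex markers was -0.73 on replicate 3, against -0.028 to 0.18. The median of the microglia and macrophage markers was 1.24 on replicate 4, against -0.50 to 0.075. It rests on 3 probes on replicates 3 and 4 and on 5 or 6 on the others. Over the 2 probes with all values the median was 2.28 on replicate 3, 1.07 on replicate 4 and 0.67 on replicate 5, so replicate 4 was then not the distant array, and C1qb alone was at 5.06 on replicate 3. All 4 values named came from replicates 3 and 4.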

How the results depend on the processing

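Under every alternative run, 0 members passed for the mean. The median of the member means stayed within 1 standard deviation over arrays of its reported value of -0.014. That is a wide bound, since the array medians of the members ran from -0.21 to 0.30. The sign of the median did turn, among others to 0.11 without replicate 1 and to 0.065 among probes with 6 values. For the contrast 0 members passed except with array weights, where 1 did, Col1a1. The count of members at an unadjusted p under 0.05 for the mean, reported as 4, was 7 with the sign of replicates 1 to 3 turned, 2 among probes with 6 values, 11 with array weights, 10 without replicates 3 and 4, and 0 to 4 when 1 replicate was left out, with 0 without replicate 6 and 1 without replicate 1, 2 or 5. For the contrast, reported as 7, it was 1 among probes with 6 values, 11 with at least 1 value per orientation and 3 in all, 13 with array weights, and 1 to 8 when 1 replicate was left out, with 4, 2, 3 and 1 without replicates 1, 2, 5 and 6. The count of members with a contrast above 0 was 14 of 18 among probes with 6 values and ran from 16 to 33 when 1 replicate was left out. It was 17 of 23, 16 of 23, 19 of 25 and 20 of 25 without replicates 1, 2, 5 and 6, where fewer members could be fitted. As a share it ran from 69.6% to 84.6% over these settings, against 45.5% to 57.3% of all probes. Members with 1 sign on every array numbered 8 without replicates 3 and 4 and 0 to 2 when 1 replicate was left out. For the 5 other lists 80 medians of the mean, not of the contrast, were recomputed. All stayed within 1 standard deviation over arrays, but signs could turn. Without replicates 3 and 4 the median went from -0.066 to 0.12 for integrin adhesion and signalling. It went from 0.15 to -0.028 for other matrix proteases and inhibitors and from -0.020 to 0.017 for other matrix proteins. For proteoglycan and hyaluronan receptors it went from -0.035 to 0.025, and for collagen processing and crosslinking from 0.077 to 0.13.

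Of 822 recomputed estimates of named members 731 kept their sign. Part of these could not change by construction, so the count is no measure of stability. Robust moderation and the filters on missing values leave each estimate as it was. So does leaving out a replicate on which the probe had no value, or averaging a gene with a single probe. With the sign of replicates 1 to 3 turned, the mean is by construction the orientation contrast as reported and no separate result. It became 0.22 for Col11a1 (probe 6746), 0.53 for Col5a1, -0.45 for Col5a2, 0.14 for Col18a1, 0.42 for Col4a1, 0.52 for Col4a2, 0.080 for Col4a5, 0.44 for Col14a1, -0.26 for Col6a3, 0.80 for Lama1, -0.29 for Lama5, 0.14 for Lamb1, 0.12 for Itgal, -0.25 for Mmp2, 0.25 for Mmp24, 0.33 for Timp2, 0.16 for Timp3, 0.61 for Bgn, 0.56 for Dcn and 0.066 for Sparc. Without replicates 3 and 4 the means turned to -0.37 for Col11a1 (probe 1689), 0.062 for Col4a1, 0.080 for Col4a2, -0.014 for Col6a3, -0.11 for Lama5, 0.066 for Lamb1, -0.32 for Mmp2, 0.089 for Mmp24 and 0.17 for Timp2, and, of the members named by rule, the contrasts to -0.061 for Col18a1, -0.068 for Itgb1 and 0.62 for Mmp3. With array weights the means turned to -0.30 for Col11a1 (probe 1689), -0.017 for Col1a1, 0.031 for Col4a1, 0.081 for Col4a2, -0.025 for Col6a3, -0.046 for Lama5, 0.039 for Lamb1, -0.23 for Mmp2, 0.061 for Mmp24, 0.14 for Timp2 and -0.0019 for Itgb1bp1, and the contrasts to -0.032 for Col18a1, -0.035 for Itgb1 and 0.53 for Mmp3. With centred and scaled arrays the means turned to -0.15 for Col11a1 (probe 1689), -0.017 for Lama5, -0.030 for Mmp2, 0.056 for Timp2 and -0.035 for Itgb1bp1, and the contrasts to -0.011 for Itgb1 and 0.30 for Mmp3. With median centring the means turned to 0.0053 for Timp2, 0.032 for Sparc and -0.017 for Itgb1bp1, without a dye term to 0.040 for Lama1 and 0.032 for Bgn, and averaged per gene to 0.19 for Col11a1 and -0.0036 for Col6a3. The cause of the turns other than those of the turned sign was not tested.

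Leaving out 1 replicate gave means from -0.15 to 0.22 for Col11a1 (probe 1689), -0.31 to 0.045 for Col18a1, -0.014 to 0.17 for Col6a3, -0.35 to 0.0014 for Lama1, -0.11 to 0.35 for Lama5, -0.20 to 0.00022 for Lamb1, -0.029 to 0.13 for Itgb6, -0.082 to 0.41 for Mmp2, -0.88 to 0.046 for Mmp3, -0.11 to 0.089 for Timp2, -0.24 to 0.077 for Timp3, -0.25 to 0.12 for Bgn and -0.17 to 0.16 for Sparc. It gave contrasts from -0.071 to 0.39 for Col11a1 (probe 1689), -0.061 to 0.29 for Col18a1, -0.056 to 0.20 for Col4a5, -0.019 to 0.34 for Lamc1, -0.072 to 0.15 for Itgb1, -0.49 to 0.071 for Mmp2, -0.46 to 0.46 for Mmp3, -0.035 to 0.18 for Fn1 and -0.10 to 0.23 for Sparc. Another background correction, a filter on dim probes and the slide as a block were not run, since they need signals that were not used here. No paired analysis was possible because each array holds a different mutant against the same pool.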
